A study of Mus musculus with 2 samples.

Results

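The cells described here are 396 lymphocytes of the adult mouse liver with a CD3 transcript and no detected CD8 transcript, from a library sorted for CD122 and CD49a. They were chosen from their own counts. A cell was taken if it had at least 1 unique molecular identifier (UMI, a counted RNA molecule) over Cd3d, Cd3e and Cd3g and 0 UMIs over Cd8a, Cd8b1, Tyrobp, Fcer1g and H2-Ab1. The 396 cells made up 31.7% (exact 95% binomial interval 29.2 to 34.4) of the 1248 cells of that library left by the cell filters, which asked for 500 or more genes with a UMI and no more than 10% of UMIs from mitochondrial genes, and the series held 4313 such cells in all.

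The study sorted liver CD45+ cells of adult C57BL/6 mice (7 to 10 weeks of age) with 2 gates and made 1 droplet library from each. The gate used here is CD45+Lin-CD122+CD49a+, and the other, called LSM, is CD45+Lin-Sca-1+Mac-1+. The labels name no genotype and no treatment for either. The number of mice pooled and the antibodies of the lineage (Lin) mixture, including whether CD3 was among them, are not given in the sources used here. Each class of cells below comes from 1 library, so no difference has a replicate check, no p-value is given, and every interval is an exact 95% interval that covers counting error only.

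CD3 delta, epsilon and gamma are the signalling chains of the T cell receptor, and their transcripts mark T cells. In the mouse liver, many T cells are innate-like: natural killer T (NKT) cells depend on the transcription factor PLZF (Zbtb16), use CXCR6 to patrol the sinusoids, carry the interleukin-2 and interleukin-15 receptor beta chain CD122 (Il2rb), and are known for releasing interleukin-4 and interferon-gamma quickly. Tyrobp and Fcer1g encode adaptors that carry signals from receptors of natural killer (NK) cells and other innate cells, and H2-Ab1 encodes an MHC class II chain of antigen-presenting cells. T cell receptor constant genes, and with them whether these cells bear alpha-beta or gamma-delta receptors, were not analysed here.

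The CD122+CD49a+ matrix held 1655 barcodes, of which 398 had too few genes and 9 had too many mitochondrial UMIs. The CD8-negative CD3 cells had 686 to 7987 UMIs per cell, with a median of 1217 UMIs and 648 genes, and 548503 UMIs in all. The cells set against them were 76 CD8-transcript cells (at least 1 CD3 UMI, at least 1 Cd8a or Cd8b1 UMI and 0 of the other 3 excluded genes; median 1403 UMIs, 124299 UMIs in all), 133 CD3 cells with Tyrobp or Fcer1g (median 1403 UMIs), and the 852 other cells of the library (median 1718 UMIs). The 2 libraries shared 3 barcodes, 2 of them among the 396 cells; without those, 394 cells (31.6%) remained.

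The CD3 genes chose the cells, so their values are a description. Cd3d was detected in 326 (82.3%), Cd3g in 316 (79.8%) and Cd3e in 248 (62.6%) of the 396 cells. These genes lie side by side on chromosome 9 of GRCm38, Cd3g at chr9:44969572-44980431, Cd3d at chr9:44981786-44987339 and Cd3e at chr9:44998740-45009627. Just inside the rule, 37 cells had a single CD3 UMI, 60 had 2 and 299 had 3 or more. Just outside it, 122 CD3 cells were left out for a single UMI of an excluded gene, which was H2-Ab1 in 59, Tyrobp in 24, Fcer1g in 15, Cd8b1 in 13 and Cd8a in 11. Maf was detected in 35.1% of the cells with 3 or more CD3 UMIs and in 18.9% of those with 1, and in 25.4% of the 122 cells just outside. Gzma was detected in 4.01%, 2.70% and 14.8% of the same groups of cells. In the same order, Il2rb was detected in 51.8%, 45.95% and 44.3%, Cxcr6 in 34.1%, 16.2% and 32.8%, and Zbtb16 in 6.02%, 10.8% and 8.20%. These markers were thus also found in the cells just outside the rule.

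The 4 markers given for these cells outside the rule were unequally detected. Il2rb, which encodes the CD122 of the gate, was detected in 52.3% of the cells (interval 47.2 to 57.3), Cxcr6 in 33.6% (29.0 to 38.5), Maf, the transcription factor c-MAF, in 31.8% (27.3 to 36.7), and Zbtb16 in 5.81% (3.72 to 8.59). Itga1, which encodes CD49a, was detected in 10.4% (7.53 to 13.8). Of the 396 cells, 85 had none of the 4 markers, 166 had 1, 114 had 2, 29 had 3 and 2 had all 4. Zbtb16 and Maf were found together in 11 cells. The rule itself sets the presence of CD3 and the absence of CD8 transcripts, and Zbtb16 was too sparse to mark the cells one by one.

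The shares were compared between classes after each cell was thinned to 1000 UMIs, which kept 307 CD8-negative CD3 cells, 70 CD8-transcript cells and 378 H2-Ab1 cells without CD3 and left out 89, 6 and 49 shallower ones. Antigen-presenting cells should lack most lymphocyte transcripts, so their share is a guide to what free RNA in the droplets gives; their unthinned median was 2265 UMIs. At equal depth Il2rb was detected in 45.9% of CD8-negative CD3 cells, 12.9% of CD8-transcript cells and 0.794% of H2-Ab1 cells without CD3. Maf stood at 26.1%, 2.86% and 1.85% in the same order of classes, and Zbtb16 at 4.56%, 0% and 0.265%, where 0 of 70 cells does not exclude a small share (3 cells would be 4.29%). Unthinned, Maf was detected in 31.8%, 2.63% and 2.81% of these classes. For these 3 genes the interval of the CD8-negative CD3 cells lay above that of the H2-Ab1 cells, and for Il2rb and Maf also above that of the CD8-transcript cells. Cxcr6, in 28.0% of CD8-negative CD3 cells (23.1 to 33.4) and 18.6% of CD8-transcript cells (10.3 to 29.7), had overlapping intervals.

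**Figure D1:**
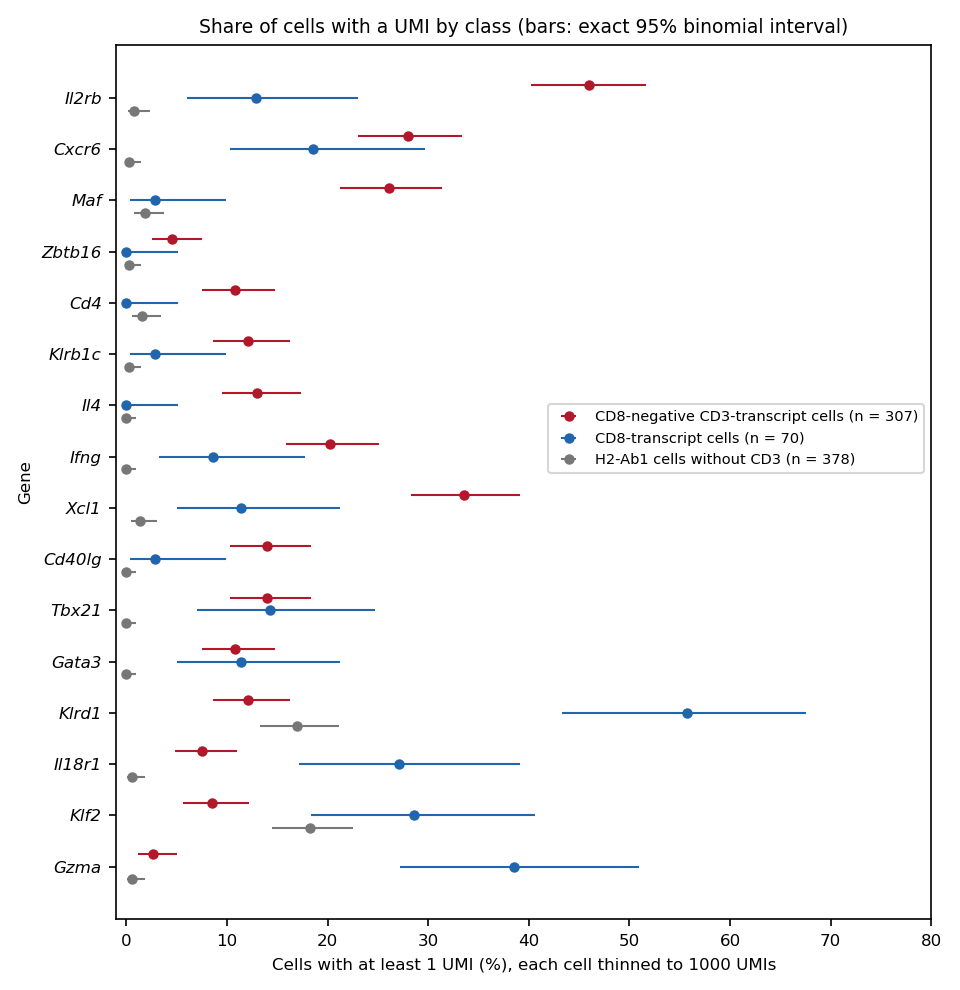
Cells with at least 1 UMI of each gene (horizontal axis, percent, each cell thinned to 1000 UMIs) in CD8-negative CD3-transcript cells (red, n = 307), CD8-transcript cells (blue, n = 70) and H2-Ab1 cells without CD3 (grey, n = 378), with exact 95% binomial intervals as bars. Il2rb, Maf, Il4 and Xcl1 are detected more often in the red class than in the blue one, while Klrd1, Il18r1, Klf2 and Gzma are detected more often in the blue class; Klrd1 and Klf2 in the red class lie at or below the grey class.

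Against the CD8-transcript cells, the CD8-negative CD3 cells had more transcript of Maf, Il2rb, the lymphocyte chemokine Xcl1, interleukin-4 and Cd4, and less of the serine protease Gzma, the chemokine Ccl5, the NK receptor chain Klrd1 and the S100 and galectin genes. Levels are given as CPM, the UMIs of a gene summed over the cells of a class and scaled to that class's total. Genes with at least 50 UMIs over both classes numbered 1771, and 316 (17.8%) differed by at least 2-fold: 273 (15.4%) were higher and 43 (2.43%) lower in the CD8-negative CD3 cells. Cd8a and Cd8b1, which the rule sets at 0, are among the 43. Counts over the gene lists below are to be read beside these shares of 15.4% higher and 2.43% lower over all genes. The median log2 ratio of all 1771 genes was 0.25, and 0.13 when the profiles were scaled with TMM factors (a scaling that trims the most unequal genes). The classes held unequal UMI totals, so a gene could pass the minimum through the larger class with few counts in the smaller one, and when each cell was thinned 113 of 904 genes compared (12.5%) were higher and 31 (3.43%) lower.

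**Figure D2:**
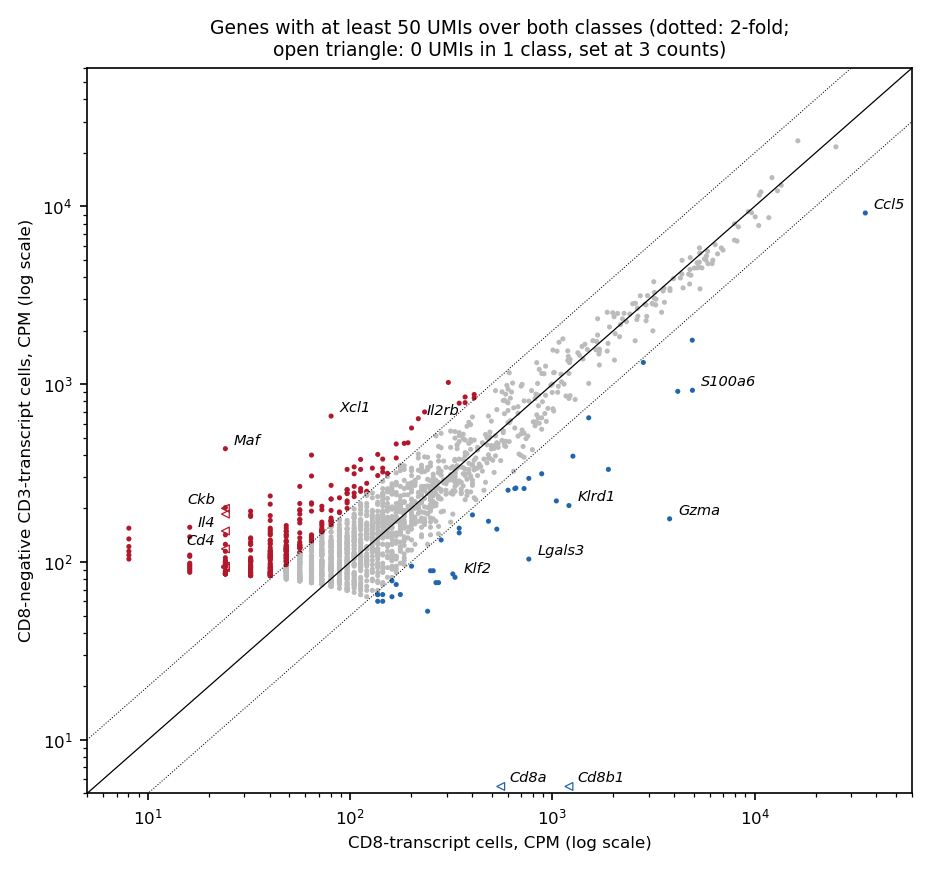
Summed level of each of 1771 genes in CD8-negative CD3-transcript cells (vertical axis, CPM, log scale) against CD8-transcript cells (horizontal axis, CPM, log scale); red points are at least 2-fold higher and blue points at least 2-fold lower in the CD8-negative CD3-transcript cells, and open triangles have 0 UMIs in 1 class. Maf and Xcl1 lie far above the diagonal, and Gzma, Ccl5, Klrd1 and S100a6 lie below the 2-fold line.

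Among the listed transcription factors, Maf had the largest ratio. It had 238 UMIs (434 CPM, interval 381 to 493) in the CD8-negative CD3 cells and 3 UMIs (24.1 CPM, 4.98 to 70.5) in the CD8-transcript cells, a ratio of 18.0 (6.08 to 87.8). The ratio was 53.2 when cells with the highest doublet scores were removed and 1.70 under a strict cell filter (1000 or more genes, no more than 5% mitochondrial UMIs), which left 19 CD8-negative CD3 cells. Of 28 lymphocyte transcription factors listed, 15 had enough UMIs, 4 of these were at least 2-fold higher (Maf, Runx1, Ikzf2 and Satb1) and 0 lower, with a list median log2 ratio of 0.50. Runx1, a factor of early T cell development, had a ratio of 3.30 (1.55 to 8.42), and Satb1, a chromatin organiser of thymocytes, one of 2.43 (1.27 to 5.20); both missed 2-fold in thinned cells, at 1.98 and 1.54. Tbx21, which encodes T-bet and drives interferon-gamma programmes, was at 138.6 against 121 CPM (ratio 1.15, 0.654 to 2.15). Gata3, the factor of type 2 responses, was at 94.8 against 80.5 CPM (ratio 1.18, 0.592 to 2.60). For both, the interval of the ratio spans equal levels.

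The list of genes known from NKT and other innate-like T cells held 17 genes, 10 with enough UMIs. Of these, 4 were at least 2-fold higher (Maf, Klrb1c, Cd4 and Icos), 1 was lower (Il18r1) and 5 lay between, with a median log2 ratio of 0.81. Klrb1c, the NK1.1 receptor of C57BL/6 mice, had 86 UMIs in the CD8-negative CD3 cells and 2 in the CD8-transcript cells (ratio 9.74, 2.62 to 81.8), a ratio that was 4.46 with a minimum of 300 genes and 5.81 in thinned cells. Cd4, the co-receptor of MHC class II-restricted T cells, had 65 UMIs in 51 cells and 0 UMIs in the CD8-transcript cells. With the 0 replaced by the floor, 3 counts over that class, Cd4 was 4.91-fold higher (3.19-fold in thinned cells). The exact lower limit of its ratio was 3.88. Zbtb16 had 26 UMIs against 0, below the 50-UMI minimum. Izumo1r, which encodes folate receptor 4, had 42 UMIs against 1, and Zbtb7b, the factor known for the CD4 lineage choice, 44 against 1. The classes were chosen on CD8, the other T cell co-receptor, and the part of that choice in the Cd4 and Zbtb7b values was not tested. Il18r1, a chain of the interleukin-18 receptor, ran the other way, at 76.6 CPM in CD8-negative CD3 cells and 273.5 CPM in CD8-transcript cells (3.57-fold lower, 2.20 to 5.75).

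Among cytokine genes, Il4, Xcl1 and Cd40lg were higher and Ccl5 was lower. Il4 had 82 UMIs in 60 of the 396 cells and 0 UMIs in the CD8-transcript cells. With the 0 at the floor it was 6.19-fold higher (4.10-fold in thinned cells), with an exact lower limit of 4.925. Ifng was at 244 CPM in CD8-negative CD3 cells and 129 CPM in CD8-transcript cells (ratio 1.90, 1.13 to 3.42), just under 2-fold. Xcl1, a chemokine that attracts cross-presenting dendritic cells, was at 662 against 80.5 CPM (ratio 8.23, 4.42 to 17.3). Cd40lg, the ligand by which helper T cells stimulate CD40 on antigen-presenting cells, was at 184 against 32.2 CPM (ratio 5.72, 2.17 to 21.4). Ccl5 ran the other way: it was detected in 92.2% and 98.7% of the classes' cells, yet its level was 9183 CPM in CD8-negative CD3 cells against 35262 CPM in CD8-transcript cells, 3.84-fold lower (3.69 to 3.999), and its ratio was 0.412 under the strict filter against 0.260 without it. Ccl4 and Ccl3, inflammatory chemokines, had 9 UMIs against 25 (ratio 0.0816, 0.0335 to 0.181) and 2 against 10 (ratio 0.0453, 0.00483 to 0.213), below the minimum. Among 22 listed cytokine and chemokine genes, 7 had enough UMIs, 4 of them higher (Xcl1, Il4, Cd40lg and Tgfb1) and 1 lower (Ccl5), with a median log2 ratio of 1.16. Tgfb1, a regulatory cytokine with a ratio of 2.23, missed 2-fold at 1.87 when cells with H2-Aa, H2-Eb1 or Cd74 UMIs were also left out. Of 10 type 1 genes compared 2 were higher (Xcl1 and Il2rb) and 3 lower (Klrd1, Ccl5 and Klrk1), with a median log2 ratio of 0.40, and of 3 type 2 genes 2 were higher (Il4 and Plac8). Over all genes compared, 15.4% were higher and 2.43% lower.

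Of 16 genes of the type 17 programme, 0 had enough UMIs to compare and 10 were at 0 in the CD8-negative CD3 cells, among them Il17a, Il17f, Il22, Il23r and Ccr6. The largest counts of that list were 27 UMIs of Tmem176b and 15 of Tmem176a. Foxp3, the factor of regulatory T cells, was at 0 UMIs, with an exact upper bound of 6.725 CPM. Ikzf2, which regulatory and several innate-like T cells express, was at 128 against 40.2 CPM (ratio 3.17, 1.30 to 10.1), and was the 1 gene of 2 compared in the regulatory and follicular helper list to pass 2-fold. The other, Tnfrsf18, which encodes GITR, had 107 UMIs (195 CPM) against 16 (129 CPM), a ratio of 1.52 (0.892 to 2.75). That list of 10 genes summed to 428 CPM in CD8-negative CD3 cells, 273.5 CPM in CD8-transcript cells and 193 CPM in the rest of the library.

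Receptor genes split in both directions. Il2rb was at 639.9 CPM (interval 575 to 710.5) in CD8-negative CD3 cells and 217 CPM (143 to 316) in CD8-transcript cells, a ratio of 2.95 (1.99 to 4.54). Its ratio was 4.28 in thinned cells and turned to 0.917, over 23 UMIs, under the strict filter. In 4 depth bins of the CD8-negative CD3 cells, from shallow to deep, the Il2rb level was 793, 798, 746 and 424 CPM. The part of depth in the Il2rb ratio was not tested. The common gamma chain Il2rg, which pairs with Il2rb, had a ratio of 1.77 (1.18 to 2.75), and Il7r, the receptor of interleukin-7, was at 224 against 418 CPM (ratio 0.536, 0.385 to 0.756). Of 25 NK receptor genes, 10 had enough UMIs, 3 of them higher (Klrb1f, Klrb1c and Cd160) and 4 lower (Klrd1, Klrc1, Klrk1 and Klrc2), with a median log2 ratio of -0.03. Cd160, a receptor for the ligand HVEM, was at 343 against 105 CPM (ratio 3.28, 1.87 to 6.27). Klrd1, the CD94 chain, was at 208 against 1207 CPM (5.81-fold lower, 4.52 to 7.47; ratio 0.0849 under the strict filter against 0.172 without it), and its partner Klrc1 (NKG2A) was 3.47-fold lower (2.13 to 5.60). Klrk1, the activating receptor NKG2D, was 2.85-fold lower (2.02 to 3.98). Klrc2 (NKG2C), 2.52-fold lower, passed 2-fold by little and missed it in thinned cells with a ratio of 0.502. At equal depth Klrd1 was detected in 12.1% of CD8-negative CD3 cells, 55.7% of CD8-transcript cells and 16.9% of H2-Ab1 cells without CD3. The first share is no higher than that of the H2-Ab1 cells, and whether those express Klrd1 was not tested.

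**Figure D3:**
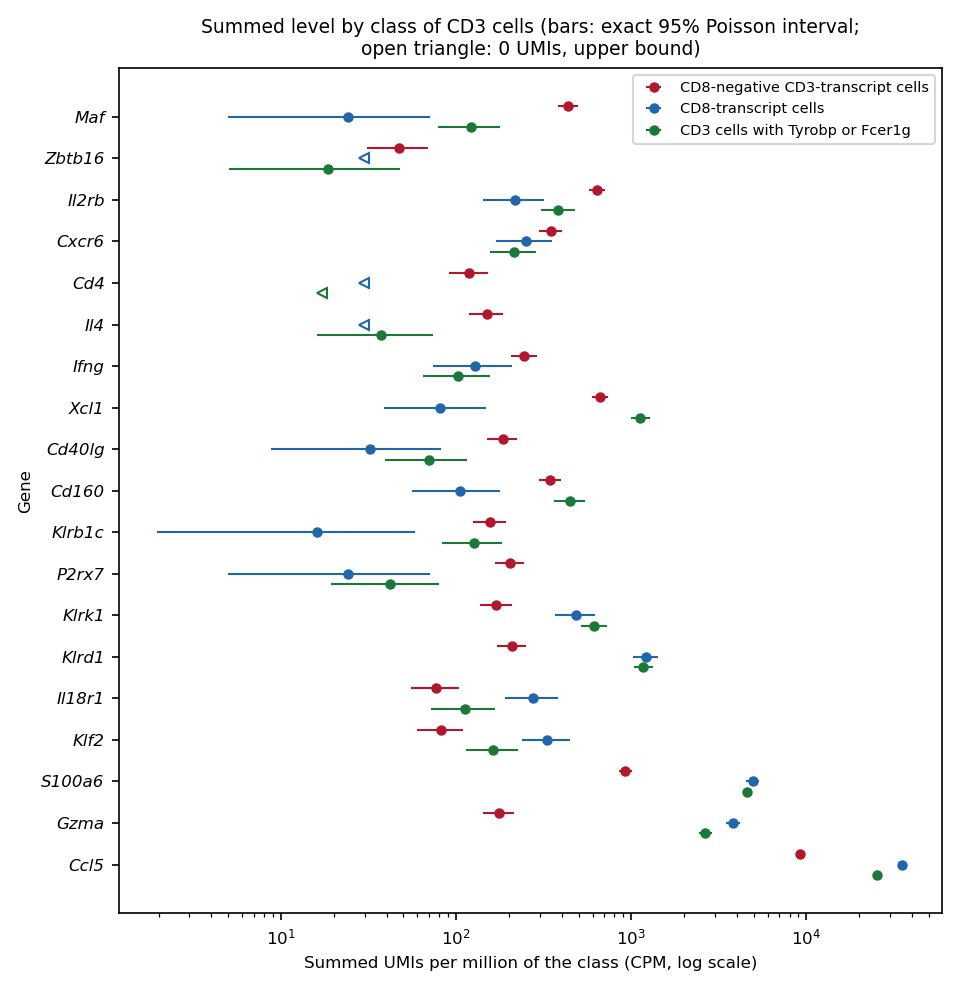
Summed level (horizontal axis, CPM, log scale) of 19 genes in CD8-negative CD3-transcript cells (red), CD8-transcript cells (blue) and CD3 cells with Tyrobp or Fcer1g (green), with exact 95% Poisson intervals as bars and open triangles for the upper bound of 0 UMIs. Maf, Cd4 and Il4 are highest in the red class, Xcl1 and Cd160 are at least as high in the green class, and Klrk1, Klrd1, S100a6, Gzma and Ccl5 are lowest in the red class.

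Killing genes differed in 1 member far more than in the rest. Gzma, granzyme A, was at 175 CPM in CD8-negative CD3 cells and 3797 CPM in CD8-transcript cells, 21.7-fold lower (17.4 to 27.3), and it was detected in 3.79% and 39.5% of cells. Gzmb, granzyme B, was at 222 against 249 CPM (ratio 0.892, 0.597 to 1.37), Nkg7, a granule membrane protein, was at 1756 against 2566 CPM (ratio 0.684, 0.602 to 0.779), and Fasl, a death ligand, had 58 UMIs against 3 (ratio 4.38, 1.43 to 21.9; 7.03 as a mean of per-cell CPM). Of 13 listed genes 6 had enough UMIs, 1 of them higher (Fasl) and 1 lower (Gzma), against 15.4% higher and 2.43% lower over all genes. The cytoskeletal and calcium-binding genes that lead the lower side were S100a4 (5.70-fold lower, 4.68 to 6.95), S100a6 (5.33-fold, 4.73 to 6.00), Vim (4.74-fold, 3.67 to 6.12), Lgals1 (4.57-fold, 4.04 to 5.18) and Lgals3 (7.36-fold, 5.24 to 10.4). Without the 76 cells of sub-cluster 4, described below, the ratio of CD8-negative CD3 cells over CD8-transcript cells moved to 0.00324 for Gzma (0.0461 with them), 0.0676 for S100a6 (0.188 with them), 0.0782 for S100a4 (0.175 with them), 0.108 for Vim (0.211 with them), 0.111 for Lgals1 (0.219 with them) and 0.0580 for Lgals3 (0.136 with them). S100a6, S100a4, Lgals1 and Vim lead that sub-cluster and Gzma is highest in it, so leaving it out lowers their ratios by construction. These shifts are a description and no test. When cells with H2-Aa, H2-Eb1 or Cd74 UMIs were also left out, the Gzma ratio was 0.109, and under the strict filter that of Lgals3 was 0.235.

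Residency and egress genes were compared because CD49a and CXCR6 are known from cells that stay in the liver. Of 16 residency genes 8 had enough UMIs, 2 of them higher (P2rx7 and Inpp4b) and 0 lower, with a median log2 ratio of 0.62. Over all genes compared 15.4% were higher, so so few listed genes do not set this list apart. P2rx7, an ATP-gated channel of tissue-resident and innate-like T cells, had 111 UMIs against 3 (ratio 8.39, 2.80 to 41.3; 5.45 without cells that had H2-Aa, H2-Eb1 or Cd74 UMIs). Itga1 itself was at 93.0 against 64.4 CPM (ratio 1.44, 0.681 to 3.53), and Cxcr6 at 346 against 249 CPM (ratio 1.39, 0.947 to 2.10). Neither separated the classes beyond counting error. Klf2, the factor that switches on egress genes, was at 82.0 against 329.8 CPM (4.02-fold lower, 2.57 to 6.28; its thinned shares were 8.47%, 28.6% and 18.3% in CD8-negative CD3 cells, CD8-transcript cells and H2-Ab1 cells without CD3), and its target S1pr1 had 23 UMIs against 17, below the minimum. Of 13 naive and egress genes 5 were compared, 1 higher (Satb1) and 1 lower (Klf2), against 15.4% higher and 2.43% lower over all genes.

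Of 20 genes of the T cell receptor complex and proximal signalling, 16 were compared and 3 were at least 2-fold higher (Txk, Zap70 and Sh2d2a), 0 lower, a count near the 15.4% of all genes that were higher. Their median log2 ratio was 0.07, against 0.25 over all genes. Zap70, the kinase recruited to CD3, was at 337 against 129 CPM (ratio 2.62, 1.57 to 4.68; 6.37 under the strict filter), and Lck, which activates it, at 339 against 362 CPM (ratio 0.937, 0.673 to 1.33). Sh2d2a missed 2-fold in thinned cells, at 1.55. Immediate early and heat-shock genes, which respond to cell dissociation, were higher beside these: of 12 compared 7 passed 2-fold (Hspa1a, Egr1, Jun, Dusp1, Zfp36, Jund and Junb) and 0 were lower; Junb missed 2-fold with TMM scaling at 1.97 and Jund in thinned cells at 1.87. Their list summed to 4042 CPM in CD8-negative CD3 cells, 1947 CPM in CD8-transcript cells and 4455 CPM in the rest of the library, and their part in the other differences was not tested. Ribosomal protein genes summed to 296770 and 323438 CPM in the first and second of these classes. Of 11 proliferation genes 4 were compared, and 1 (Stmn1, a tubulin-binding protein) was lower, 2.21-fold (1.18 to 3.99), with a ratio that turned to 1.84 when cells with H2-Aa, H2-Eb1 or Cd74 UMIs were also left out and was 0.0851 without sub-cluster 4, against 0.453 over all cells.

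The genes with the largest ratios also included Adam19, a membrane protease (85 UMIs in CD8-negative CD3 cells and 1 in CD8-transcript cells), Asb2, a ubiquitin ligase subunit (74 and 1), Socs1, an inhibitor of cytokine signalling (60 and 1), and Dusp6, a phosphatase of ERK kinases (57 and 1). With a single UMI in the CD8-transcript cells, these ratios were loosely bounded; that of Adam19 was 19.3 (3.37 to 769.7) and 7.82 with a minimum of 300 genes, and in thinned cells those of Asb2 and Socs1 were 3.42 and 2.74 against 16.8 and 13.6 without thinning. Removing the highest doublet scores took Dusp6 to 4.28 against 12.9. Ckb, creatine kinase B, had 110 UMIs and Podnl1, a leucine-rich repeat protein, had 102 UMIs, each against 0. With the 0 at the floor they were 8.31-fold and 7.70-fold higher (4.26-fold and 5.02-fold in thinned cells), with exact lower limits of 6.645 and 6.15. With a minimum of 300 genes Ckb had a ratio of 26.9. Fgl2, a fibrinogen-like protein of T cells, was at 399 against 64.4 CPM (ratio 6.204, 3.09 to 14.6).

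Set against the CD3 cells that were left out for Tyrobp or Fcer1g, the CD8-negative CD3 cells had more Maf, Il4 and Cd4 and less of several NK receptors, granzymes and Xcl1. The class left out was not filtered on Cd8a or Cd8b1 and can hold cells with CD8 transcripts, so the classes may differ in both criteria. Of 2013 genes compared, 150 (7.45%) differed by at least 2-fold: 111 (5.51%) were higher and 39 (1.94%) lower in the CD8-negative CD3 cells, with a median log2 ratio of 0.10. Among NK receptor genes 0 of 12 were higher and 7 were lower (Klra7, Klrd1, Klra1, Klre1, Klrk1, Klrc2 and Klrc1), with a median log2 ratio of -1.47. Klra7, an Ly49 receptor, was at 62.0 CPM in CD8-negative CD3 cells and 582 CPM in CD3 cells with Tyrobp or Fcer1g (9.39-fold lower, 6.38 to 14.2), and Gzmb at 222 against 969 CPM (4.36-fold lower, 3.47 to 5.49). The absence of Tyrobp and Fcer1g, adaptors of several of these receptors, is part of the rule. Maf was at 434 against 121 CPM (ratio 3.58, 2.39 to 5.60), Il4 at 149.5 against 37.3 CPM (ratio 4.01, 1.94 to 9.61), and Cd4 had 65 UMIs against 0 (8.48-fold higher with the 0 at the floor). Xcl1 ran the other way here, at 662 against 1127 CPM (ratio 0.587, 0.498 to 0.694), and Klrb1c did not separate these classes (ratio 1.25, 0.801 to 1.999).

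Against all 852 other cells of the library, a mixture in which 427 cells had H2-Ab1 without CD3, 502 of 5251 genes (9.56%) were at least 2-fold higher and 637 (12.1%) at least 2-fold lower in the CD8-negative CD3 cells, with a median log2 ratio of 0.13. TMM scaling shifted the median to -0.10 and the split to 324 higher and 795 lower. All 17 compared genes of T cell receptor signalling were higher (median log2 ratio 1.85), from 2.28-fold for the adaptor Lcp2 to 6.17-fold for Zap70. The rule asks for a CD3 UMI, which many cells of the rest lack, so these values are a description of the selection. Against the CD8-transcript cells, which also had CD3, the median log2 ratio of this list was 0.07. Lcp2 missed 2-fold with TMM scaling (1.93), and in thinned cells both it (1.75) and the adhesion receptor Cd2 (1.97) did. Among genes of 100 CPM or more, Il4 had the largest ratio, at 149.5 CPM against 12.3 CPM in the rest (ratio 12.2, 7.54 to 20.5; 6.82 as a mean of per-cell CPM). Mmp9, a matrix metalloproteinase, was at 211.5 against 22.9 CPM (ratio 9.25, 6.43 to 13.6; 5.60 without cells that had H2-Aa, H2-Eb1 or Cd74 UMIs), Cd40lg at 184 against 24.5 CPM (ratio 7.51, 5.22 to 11.0; 4.92 as a mean of per-cell CPM), Maf at 434 against 60.2 CPM (ratio 7.21, 5.72 to 9.13; 4.72 as a mean of per-cell CPM) and Ifng at 244 against 45.2 CPM (ratio 5.41, 4.08 to 7.22). Of 12 type 1 genes compared, 8 were higher and 1 (Klrd1) was lower, and the type 2 factor Gata3 was also higher (ratio 3.40, 2.26 to 5.12). Xcl1, 2.26-fold higher, missed 2-fold with TMM scaling (1.92), in thinned cells (1.70) and as a mean of per-cell CPM (1.57). Under the strict filter the ratios were 16.7 for Maf, 20.9 for Zap70 and 8.31 for Xcl1, and 2 of the T cell receptor signalling genes missed 2-fold, Fyn at 1.21 and Lcp2 at 1.16.

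Markers of antigen-presenting cells were lower in the CD8-negative CD3 cells than in the rest of the library, while the summed markers of NK cells and ILC1 were not. Compared with CD3 cells with Tyrobp or Fcer1g, the sum of the NK cell and ILC1 markers was lower. All 13 dendritic cell and monocyte markers were lower in the CD8-negative CD3 cells than in the rest (median log2 ratio -5.84), and their sum was 543 CPM in these cells, 627.5 CPM in CD8-transcript cells and 56026 CPM in H2-Ab1 cells without CD3. The rule asks for 0 UMIs of H2-Ab1, Tyrobp and Fcer1g and so puts antigen-presenting cells in the rest, which makes these values a description. Of the 13, 3 were at 0 in the CD8-negative CD3 cells (Clec10a, Xcr1 and Ace), while Cd74, the MHC class II invariant chain, was found in 15.7% of them and Cst3 in 28.5%. The 8 Kupffer cell markers and the 5 neutrophil markers were all at 0, the 9 hepatocyte transcripts summed to 3 UMIs, the 7 B and plasma cell markers to 2, the 6 endothelial markers to 3 and the 6 erythroid and platelet markers to 1. Of 10 markers of NK cells and ILC1 that the rule did not use, Eomes and Klra8 were at 0 and Ncr1, which encodes the NKp46 receptor, had 2 UMIs, while Cd7 had 325, Gzmb 122, Klrb1c 86 and Klre1 62 of the list's 633 UMIs. T cells also express Cd7, Gzmb and Klrb1c. The list summed to 1154 CPM in CD8-negative CD3 cells (60.1% of cells with a UMI), 845 CPM in CD8-transcript cells, 3633 CPM in CD3 cells with Tyrobp or Fcer1g and 1073 CPM in the rest of the library. The part of free RNA in the low values was not tested.

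Variation among the 396 cells was described by clustering them on their own, which gave 4 sub-clusters of 120, 103, 97 and 76 cells. The genes that lead a sub-cluster defined it and are no test. Sub-cluster 1 was led by Prkcq, the protein kinase C theta of T cell activation, Mmp9 and Maf, the last in 50.8% of its cells and in 18.4% to 28.9% of the others. Sub-cluster 2 was led by Satb1, Ckb, the kinase Txk, Il7r and Ikzf2, and Ccl5 was lowest there, at 2790 CPM against 6904 to 16789 CPM in the others. Sub-cluster 3 was led by the heat-shock genes Hspa1a and Hspa1b and the interferon-responsive Ifi27l2a. Sub-cluster 4 was led by S100a6, S100a4, Ly6c2, Lgals1 and Vim. Of these 5, all but Ly6c2 are among the 15 genes that lead the side lower in the whole set than in the CD8-transcript cells.

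**Figure D4:**
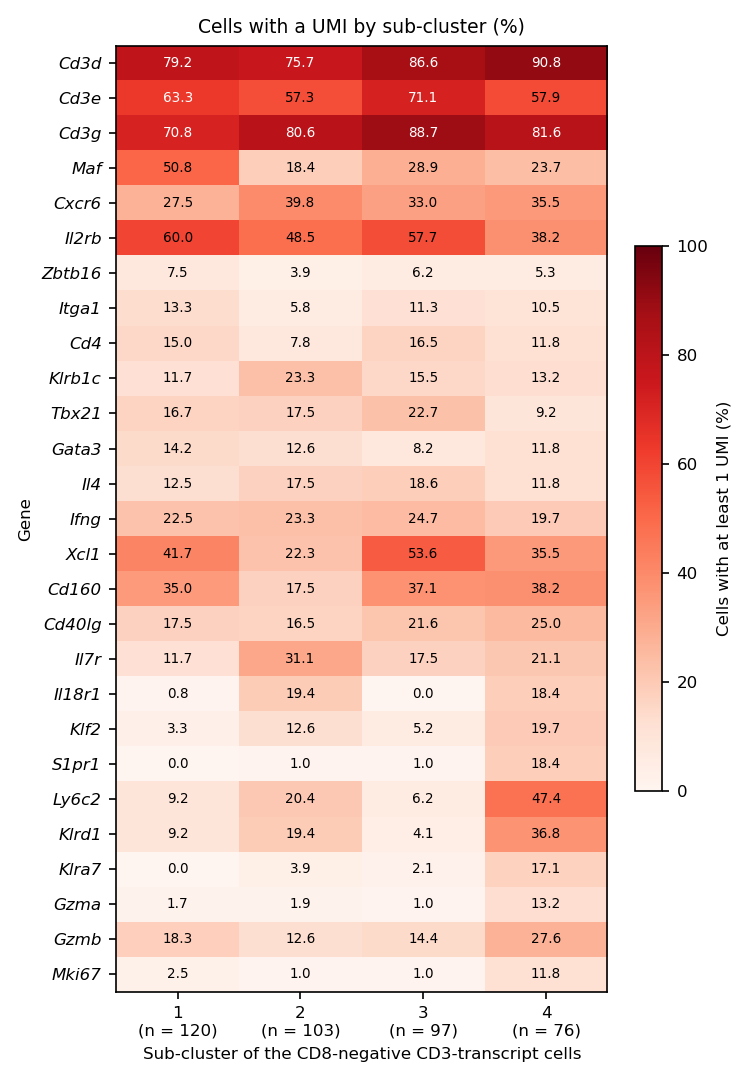
Cells with at least 1 UMI (colour and printed number, percent) of 27 genes in the 4 sub-clusters of the CD8-negative CD3-transcript cells (columns). Maf is most often detected in sub-cluster 1, Il7r and Klrb1c in sub-cluster 2, Xcl1 in sub-cluster 3, and Ly6c2, Klrd1, Klra7, S1pr1, Gzma and Mki67 in sub-cluster 4; the shares were not thinned, and sub-cluster 4 had the highest median depth, 1463 UMIs.

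Several genes chosen after their values were seen were uneven over the sub-clusters. Gzma was at 638 CPM in sub-cluster 4 (13.2% of its cells) and at 7.46 to 14.9 CPM in the other sub-clusters. S1pr1 was detected in 18.4% of sub-cluster 4 and in at most 1.03% of the others, and Klrd1 in 36.8% against 4.12% to 19.4%. Mki67 and Top2a, proliferation genes, were each in 11.8% of sub-cluster 4 and in at most 2.50% and 1.94% of the others. Il18r1 was detected in 19.4% of sub-cluster 2 and 18.4% of sub-cluster 4, and in at most 0.833% of the others. Cxcr6 was in 27.5% to 39.8%, Gzmb in 12.6% to 27.6% and Cd4 in 7.77% to 16.5% of the cells of each. Il4 was at 210.3, 157, 157 and 77.1 CPM in sub-clusters 1 to 4, Ifng at 312, 239, 291 and 140.3 CPM, and Zbtb16 at 79.8, 37.3, 44.8 and 28.1 CPM, all lowest in sub-cluster 4. Their shares of cells ran closer together (Zbtb16 3.88% to 7.50%, Il4 11.8% to 18.6%, Ifng 19.7% to 24.7%) and were not thinned, with median depths of 1090, 1196, 1303 and 1463 UMIs in sub-clusters 1 to 4.

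Splitting the cells by a Cd4 UMI gave 51 cells with one (median 1268 UMIs) and 345 without (median 1215 UMIs), and a cell without a UMI may still express the gene. Maf was at 488 CPM in cells with Cd4 and 425 CPM in those without (ratio 1.15, 0.785 to 1.64), and Il2rb, Klrb1c and Gata3 had ratios of 0.963, 0.914 and 0.969 with intervals that span 1. Xcl1 was at 1068 against 597 CPM (ratio 1.79, 1.38 to 2.299). Tbx21 had 4 UMIs in cells with Cd4 and 72 in cells without (52.7 against 152 CPM, ratio 0.346, 0.0918 to 0.925). Gzma had 0 UMIs in cells with Cd4 and 96 UMIs in those without, but these lay in only 15 of the 396 cells, too few to set the groups apart. Ccl5 was at 7882 against 9392 CPM (ratio 0.839, 0.769 to 0.914).

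Splitting them by an Il4 UMI gave 60 cells with one (median 1401 UMIs) and 336 without (median 1195 UMIs). Ifng was detected in 20 of the 60 cells with Il4 (33.3%) and in 20.8% of the others, and its level was 390 against 214 CPM (ratio 1.82, 1.21 to 2.69). Xcl1 was at 1012 against 588 CPM (ratio 1.72, 1.35 to 2.18) and Cd160 at 496 against 311 CPM (ratio 1.60, 1.12 to 2.23). Ccl5 ran the other way, at 6706 against 9701 CPM (ratio 0.691, 0.635 to 0.751). Maf had a ratio of 0.797 (0.537 to 1.15), and Il4 and Zbtb16 were found together in 2 cells. Cells with Il4 were deeper, and in 4 depth bins from shallow to deep Il4 was detected in 8.08%, 12.0%, 16.3% and 24.2% of cells while its level was 112, 213, 149 and 132 CPM.

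The same rule found 26 of 3065 cells (0.848%) in the LSM library, whose gate does not select CD122, with a deeper median of 2570 UMIs. These LSM cells held 73638 UMIs in all, against 548503 in the CD8-negative CD3 cells of the CD122+CD49a+ library. A gene could thus pass the minimum through the larger class with few LSM counts. Of 1665 genes, 605 (36.3%) differed by at least 2-fold: 444 (26.7%) were higher and 161 (9.67%) lower in the CD8-negative CD3 cells of the CD122+CD49a+ library. Il2rb was at 639.9 CPM there and 13.6 CPM (1 UMI) in the LSM cells, a ratio of 47.1 (8.40 to 1866), and Itga1, the other gate gene, had 51 UMIs against 0 (2.28-fold higher with the 0 at the floor, exact lower limit 1.79). Cxcr6 was at 346 against 54.3 CPM (ratio 6.38, 2.45 to 23.7) and Xcl1 at 662 against 67.9 CPM (ratio 9.75, 4.14 to 30.2). Among the genes lower in the CD122+CD49a+ library were Vim (ratio 0.123, 0.0954 to 0.159), Klf2 (0.144, 0.0923 to 0.2245) and Ikzf2 (0.219, 0.147 to 0.327). Below the minimum, Foxp3 had 0 UMIs against 7 in the LSM cells and Tnfrsf4 had 5 against 24. Whether the 2 sets hold the same kinds of T cells was not tested. Il4, at 149.5 against 163 CPM (ratio 0.917, 0.498 to 1.85), and Ifng, at 244 against 190 CPM (ratio 1.29, 0.740 to 2.41), did not separate the 2 sets beyond counting error. Gate and library cannot be told apart with 1 library each.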

How the data were processed

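UMI counts per gene and cell, raw and not normalised, were deposited by the authors as 1 matrix per gate, and the file headers name version 3.0.1 of the software. The submitters' processing notes list Seurat 2.3.0, STAR and the build GRCm38 without saying what each did; how barcodes were selected is not stated. Gene positions came from GENCODE M21, in which 27645 of 27998 identifiers were found.

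The members, the 26 gene lists (281 genes, 1 not analysed here) and the tests were chosen with earlier results of these data known. Counts were summed per class, and intervals were exact Poisson, conditional binomial or Clopper-Pearson intervals at 95% (scipy 1.17.1). Genes with at least 50 UMIs over both classes were compared, called at 2-fold, and a gene without UMIs in a class took the floor of 3 counts there (24.1 CPM in CD8-transcript cells, 5.47 CPM in the CD8-negative CD3 cells). Classes held unequal UMI totals in every comparison, so a gene could pass the minimum mainly through the larger class. Named genes were the markers, the rule and list genes, the 15 largest ratios per direction (at least 100 CPM) and up to 5 leading genes per sub-cluster. Ribosomal, mitochondrial and predicted genes were left out of the ranking. Sub-clusters used scanpy 1.11.5 (1000 variable genes, 10 components, 15 neighbours, leidenalg 0.10.2 at resolution 0.6). Scrublet marked 0.242% of 1655 barcodes, too few to have worked, so no doublets were removed in the main values, and removing the 22 highest scores (1.32% expected) was an alternative. TMM factors came from edgeR 4.0.16. The ratios and their intervals were tested on simulated Poisson counts. Such counts carry no variation between cells, so that test does not cover it. Alternatives without sub-cluster 4 and without shared barcodes were chosen after seeing the data. UMIs of a cell are not independent, so intervals cover counting error only.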

Additional observations from a re-analysis of the deposited data

Results flagged for a closer look

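Of the 398 barcodes of the CD122+CD49a+ library that fell under the minimum of 500 detected genes and enter no comparison, 187 (47.0%) had a CD3 UMI, and a count of 0 would allow up to 0.754%. Among the 1248 cells kept, which were deeper, 745 had a CD3 UMI, a larger share. No background share of CD3 UMIs was measured for such shallow barcodes, so free RNA cannot be told apart from T cells here. Of the 398, 99 met the other terms of the rule. The median of 666 UMIs per barcode, over all 398, is below that of the cells described above, and what they hold was not tested. Lowering the minimum to 300 genes gave 495 CD8-negative CD3 cells, 31.0% of the cells kept.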

How the results depend on the processing

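No paired analysis was possible because there is 1 library per gate and the labels give no shared replicate numbers. The share of 31.7% moved to 8.12% (19 cells) under the strict cell filter (1000 or more genes, no more than 5% mitochondrial UMIs), 28.8% with at least 2 CD3 UMIs and 23.0% with 0 UMIs of H2-Aa, H2-Eb1 and Cd74, and stayed between 31.0% and 31.9% otherwise. Against CD8-transcript cells, 273 higher genes became 8 under that filter, 176 with the added MHC genes, 113 in thinned cells, 892 at a minimum of 20 UMIs and 79 at 100 UMIs, and 43 lower genes became 11 under the strict filter, 146 at 20 UMIs and 25 at 100 UMIs; fewer or more genes were compared in each. Against the rest, 502 higher became 190 (strict filter), 236 (thinned), 324 (TMM), 950 (20 UMIs) and 266 (100 UMIs), and 637 lower became 395, 294, 795, 1128 and 349. Without sub-cluster 4 the counts were 242 and 46 against CD8-transcript cells, 225 of those 288 genes being among the original 316. There were 2 sub-clusters at resolution 0.3 and 9 at 1.0.

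Under the strict filter directions turned for Il2rb against CD8-transcript cells (ratio 0.917) and, against the rest, for Birc5 (1.48), Ccl4 (1.43), Cxcr4 (1.09), H2afz (1.065), Klra3 (2.72) and S100a6 (1.15), and with the added MHC genes for Stmn1 against CD8-transcript cells (1.84). The cause was not tested. Of 63 named genes called against CD8-transcript cells, 5 fell short of 2-fold in thinned cells (Jund, Klrc2, Runx1, Satb1 and Sh2d2a), 1 with TMM scaling (Junb), 5 with the added MHC genes (H2afz, Plac8, Satb1, Stmn1 and Tgfb1), 2 at 300 genes (Junb and Jund), 2 with CD8 cells with or without CD3 (Junb and Tgfb1) and 0 without sub-cluster 4. For the lower genes that lead sub-cluster 4, leaving it out could only lower the ratio further. Only 19 of the 63 had a ratio under the strict filter, of which 3 were lost (Il2rb, Maf and Stmn1), since a value was given only with at least 20 UMIs and a direction. Of 140 named genes called against the rest, 11 were lost with TMM scaling, 14 of 137 in thinned cells, 21 of 98 under the strict filter, 11 as a mean of per-cell CPM and 8 with the added MHC genes. Depth limits the smaller classes: the floor of 3 counts is 24.1 CPM in the CD8-transcript cells and 40.7 CPM in the LSM cells.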
